A study of Mus musculus with 8 samples.

Results

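Tmem181a, Tmem181b-ps and BC002163 are 3 of the 19201 genes in an RNA-seq table of mouse hippocampus, and all 3 lie at duplicated or retrocopied loci. Tmem181b-ps and BC002163 were picked from the contrast of Mbd2-/- with wild-type libraries, because their values differed strongly between the genotypes without overlap, and Tmem181a was added as the paralogue of Tmem181b-ps. Their genotype values are therefore given as a description, with no test. Mbd2 encodes a protein that binds methylated CpG sites, and the study asked which hippocampal genes change when it is lost. The 4 wild-type libraries came from C57BL/6 mice and the 4 Mbd2-/- libraries from mice carrying the germline Mbd2 deletion on the C57BL/6 background. All mice were 10 to 12 weeks old and bred from heterozygote parents, and each library held RNA from the hippocampi of a pair of mice, depleted of ribosomal RNA and sequenced as paired reads of 100 bases. Libraries are named here by genotype and number. They held between 8087750 and 23790825 reads on genes, and all values are normalized counts, which are reads divided by a size factor of the library.

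A pseudogene is a copy of a gene that has lost, or is thought to have lost, its coding function, and many are still transcribed. A duplicated locus keeps the introns of the gene it was copied from, whereas a retrocopy arises when a spliced messenger RNA is reverse transcribed and inserted elsewhere in the genome, so that it has no introns. Tmem181a encodes a membrane protein that spans the bilayer several times and is known as a host factor for a bacterial toxin. Tmem181b-ps is a full-length duplicate of it with its introns, and BC002163 is a retrocopy of Ndufs5, which encodes an accessory subunit of complex I of the respiratory chain.

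BC002163 lies on the plus strand at chr16:42955744-42956064 in mm9, as a single exon of 321 bases in GENCODE vM1, and the same annotation marks it a processed pseudogene. The Ndufs5 gene lies on the minus strand at chr4:123389953-123395445. The coding sequence of Ndufs5 is shown with its copy because the values of BC002163 rest on reads that have to be told apart from it. Both are written 5′ to 3′ from mm9, in the pieces set by the coding exons of Ndufs5, and capitals mark the bases that differ.
Ndufs5, first piece, chr4:123393107-123393322, minus strand: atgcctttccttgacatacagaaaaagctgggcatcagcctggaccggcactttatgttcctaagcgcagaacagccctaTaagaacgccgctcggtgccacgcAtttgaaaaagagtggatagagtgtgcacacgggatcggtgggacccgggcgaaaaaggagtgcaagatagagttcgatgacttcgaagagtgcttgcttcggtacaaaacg
BC002163, first piece, chr16:42955744-42955959, plus strand: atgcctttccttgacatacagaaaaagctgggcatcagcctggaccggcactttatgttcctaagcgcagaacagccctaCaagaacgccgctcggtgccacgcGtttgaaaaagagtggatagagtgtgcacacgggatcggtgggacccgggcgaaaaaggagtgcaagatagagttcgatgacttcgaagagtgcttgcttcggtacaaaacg
Ndufs5, second piece, chr4:123390065-123390169, minus strand: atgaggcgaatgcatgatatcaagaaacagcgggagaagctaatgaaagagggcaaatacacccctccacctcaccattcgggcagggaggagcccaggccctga
BC002163, second piece, chr16:42955960-42956064, plus strand: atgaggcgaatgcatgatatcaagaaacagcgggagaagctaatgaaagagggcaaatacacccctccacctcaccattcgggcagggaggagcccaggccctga
The copy matched the coding sequence at 319 of 321 bases (99.4%), and the substitutions were T81C and A105G, counted from 1 at the first base of the Ndufs5 coding sequence. The second piece held none. Read in the frame of Ndufs5, BC002163 had 1 stop codon, which began at base 319 and was the normal end of the reading frame.

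The copied stretch was longer than the annotated gene. A run of 504 bases at chr16:42955673-42956176 aligned to bases 22 to 525 of the transcript Ndufs5-001 with no gap, and 502 of them (99.6%) were identical. BC002163 lay inside the span of 6 of the 22 annotated transcripts of Zbtb20, a gene for a transcription factor of hippocampal pyramidal neurons that is read from the same strand, and no exon of these transcripts reached it, so the copy sits in an intron of Zbtb20.

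Tmem181a lies on the plus strand at chr17:6270475-6305783 and has 1 annotated transcript, with 17 exons and 1869 bases. Tmem181b-ps lies on the minus strand of the same chromosome at chr17:6439626-6489526, so that the pair faces in opposite directions. Its longest transcript has 18 exons and 2450 bases. GENCODE vM1 marks Tmem181b-ps as protein coding, while RefSeq (GRCm38.p6) lists it as a transcribed pseudogene and gives BC002163 the name Ndufs5-ps. The 4 wholly coding exons in which the copies differ are shown, since outside the first and last exons these are the substitutions by which reads of the copies differ. They are written 5′ to 3′ from mm9, with the differing bases in capitals.
Tmem181a, exon 2, chr17:6280598-6280701, plus strand: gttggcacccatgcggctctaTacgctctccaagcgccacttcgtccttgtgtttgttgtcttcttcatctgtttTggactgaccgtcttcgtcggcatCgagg
Tmem181b-ps, match to exon 2, chr17:6466067-6466170, minus strand: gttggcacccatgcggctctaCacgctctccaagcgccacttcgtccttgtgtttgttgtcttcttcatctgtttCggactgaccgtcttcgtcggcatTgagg
Tmem181a, exon 4, chr17:6288986-6289073, plus strand: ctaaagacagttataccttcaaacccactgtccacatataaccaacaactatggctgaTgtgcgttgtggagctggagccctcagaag
Tmem181b-ps, match to exon 4, chr17:6457749-6457836, minus strand: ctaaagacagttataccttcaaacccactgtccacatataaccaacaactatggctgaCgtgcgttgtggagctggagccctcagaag
Tmem181a, exon 7, chr17:6295722-6295802, plus strand: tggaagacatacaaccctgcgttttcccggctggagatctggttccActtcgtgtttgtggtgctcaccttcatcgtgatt
Tmem181b-ps, match to exon 7, chr17:6451036-6451116, minus strand: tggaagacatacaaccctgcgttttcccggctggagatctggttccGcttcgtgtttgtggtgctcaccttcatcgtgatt
Tmem181a, exon 10, chr17:6298149-6298240, plus strand: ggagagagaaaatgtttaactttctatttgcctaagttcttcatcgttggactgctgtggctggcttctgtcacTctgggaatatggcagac
Tmem181b-ps, match to exon 10, chr17:6447673-6447764, minus strand: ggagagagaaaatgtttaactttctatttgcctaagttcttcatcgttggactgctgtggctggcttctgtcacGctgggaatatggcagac
Counted from 1 at the start of each Tmem181a exon, the substitutions were T22C, T76C and C100T in exon 2, T59C in exon 4, A47G in exon 7 and T75G in exon 10.

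Across all 17 exons, 1850 bases of Tmem181a were identical in Tmem181b-ps, 13 were substituted and 6 fell in gaps, an identity of 99.0%. Of the exons, 11 matched base for base. One of these, exon 8, was split at the pseudogene: its 100 bases lay there in pieces of 18 and 82 bases with 937 bases between them. The first exon, with 94.0% identity, was the most diverged, and its 5 gapped bases were most of the gapped bases of the gene.

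**Figure D1:**
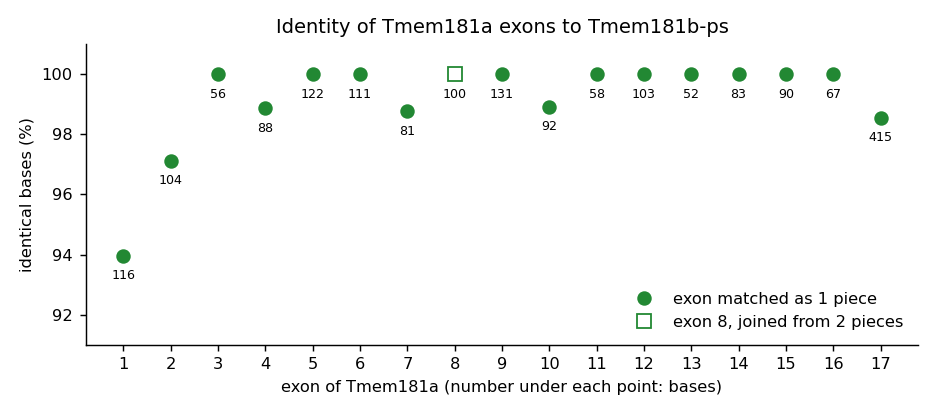
Percent of bases of each Tmem181a exon that are identical in Tmem181b-ps (vertical axis, which does not start at 0) by exon number; the number under each point is the exon's length in bases. Exons 3, 5, 6, 8, 9 and 11 to 16 stand at 100%, exon 8 only once its 2 pieces are joined, and exon 1 is the lowest at 94.0%.

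The identity limits how reads can be assigned. Of the 1770 stretches of 100 bases along the Tmem181a transcript, 997 (56.3%) occurred without a mismatch in a Tmem181b-ps transcript, and these made up 42.4% of the 2351 stretches of Tmem181b-ps. Counting exact matches in any annotated relative or elsewhere in mm9, 1030 stretches of Tmem181a (58.2%) and 1200 of Tmem181b-ps (51.0%) were not unique. Of the 222 stretches of BC002163, 117 (52.7%) occurred in an Ndufs5 transcript. A read pair covers more than a single stretch. How reads that match both copies were counted is not given in the sources used here, so the split of reads within each pair is uncertain, and the sum of Tmem181a and Tmem181b-ps is given beside the single values.

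Tmem181b-ps was the member with the highest values in wild-type hippocampus, and it was lower in every Mbd2-/- library. Its normalized counts were 862, 806, 832 and 847 in wild-type libraries 1 to 4. In Mbd2-/- libraries 1 to 4 they were 243, 231, 249 and 293. The lowest wild-type library thus stood far above the highest Mbd2-/- library, and library 4 of the Mbd2-/- group was the one nearest to wild-type. The means were 836.6 ± 23.8 and 253.9 ± 27.1 (SD, n = 4 each), a 3.29-fold lower level and a difference of -1.72 on the log2(value + 1) scale, on which the SDs were 0.04 and 0.15. The values rested on 575 to 1594 reads in wild-type libraries and on 156 to 305 in Mbd2-/- libraries. All 4 Mbd2-/- libraries kept a count that was far from 0, though how many of these reads come from Tmem181a is not known.

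Tmem181a, the intact paralogue, was also lower in Mbd2-/- hippocampus, by much less. Its normalized counts were 412, 395, 368 and 370 in wild-type libraries 1 to 4. They were 287, 310, 304 and 338 in Mbd2-/- libraries 1 to 4, so the groups did not overlap but came close, with Mbd2-/- library 4 again nearest to wild-type. The means were 386.3 ± 21.2 and 310.0 ± 21.2 (SD, n = 4 each), a 1.25-fold lower level and a log2 difference of -0.32. Per kilobase of annotated exon, Tmem181b-ps stood above Tmem181a in wild-type libraries, with means of 323.6 and 206.7 normalized counts. In Mbd2-/- libraries the order was the opposite, with 98.2 for Tmem181b-ps and 165.9 for Tmem181a.

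**Figure D2:**
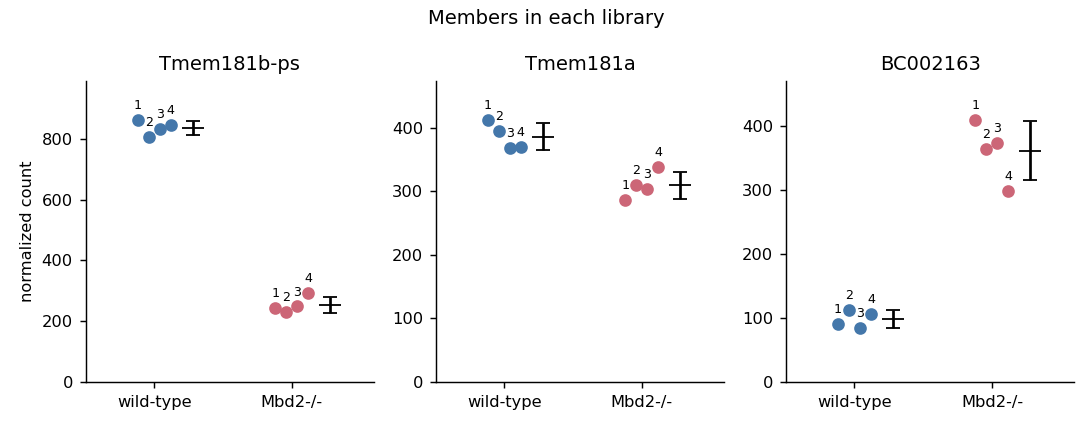
Normalized counts (vertical axes, from 0) of Tmem181b-ps, Tmem181a and BC002163 in 4 wild-type (blue) and 4 Mbd2-/- (red) libraries; digits are library numbers, the bar is the mean and the whisker 1 SD. No member's groups overlap, and Mbd2-/- library 4 is the nearest to wild-type in each panel.

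The ratio of the 2 copies within a library does not depend on how the libraries were scaled. Tmem181b-ps over Tmem181a was 2.09, 2.04, 2.26 and 2.29 in wild-type libraries 1 to 4. In Mbd2-/- libraries 1 to 4 it was 0.844, 0.746, 0.817 and 0.866, so the pseudogene held the larger number of reads in every wild-type library and the smaller number in every Mbd2-/- library. The mean ratio was 2.17 ± 0.12 against 0.818 ± 0.052 (SD, n = 4 each), and the pseudogene's part of the pair went from 68.4% ± 1.2 to 45.0% ± 1.6. Added together, the copies had 1201 to 1274 normalized counts in wild-type and 530 to 631 in Mbd2-/- libraries. The sum was 2.17-fold lower (1223 ± 34.9 against 563.9 ± 45.9), and, by the counts in the table, 88.4% of its difference lay with Tmem181b-ps and 11.6% with Tmem181a. Reads that match both copies may be missing from the sum as well.

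BC002163, the Ndufs5 retrocopy, was higher in every Mbd2-/- library. Its normalized counts were 89.9, 112, 83.9 and 107 in wild-type libraries 1 to 4. In Mbd2-/- libraries 1 to 4 they were 409, 364, 373 and 298. The groups lay far apart, and the lowest Mbd2-/- value, in library 4, was well above the highest wild-type value. The means were 98.2 ± 13.4 and 360.9 ± 46.2 (SD, n = 4 each), a 3.68-fold higher level and a log2 difference of 1.87, with SDs of 0.20 and 0.19 on that scale. The smallest number of reads behind a value was 60 in wild-type and 234 in Mbd2-/- libraries. The wild-type values thus rest on fewer reads, though the SDs on the log2 scale were close. Per kilobase of exon its mean went from 305.8 to 1124 normalized counts, the highest level of the 3 members in Mbd2-/- hippocampus.

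Zbtb20, the gene around BC002163, did not pass the test. It had means of 1542 ± 151 in wild-type and 1597 ± 128 in Mbd2-/- libraries, a log2 difference of 0.05 ± 0.07 (SE, adjusted p = 0.65 by limma). The BC002163 count, which is a row of its own in the table, was equal to 5.11% to 8.50% of the Zbtb20 count in wild-type and to 16.9% to 27.4% of it in Mbd2-/- libraries. Ndufs5 itself was not analysed here, so the source gene and its copy could not be set side by side.

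**Figure D3:**
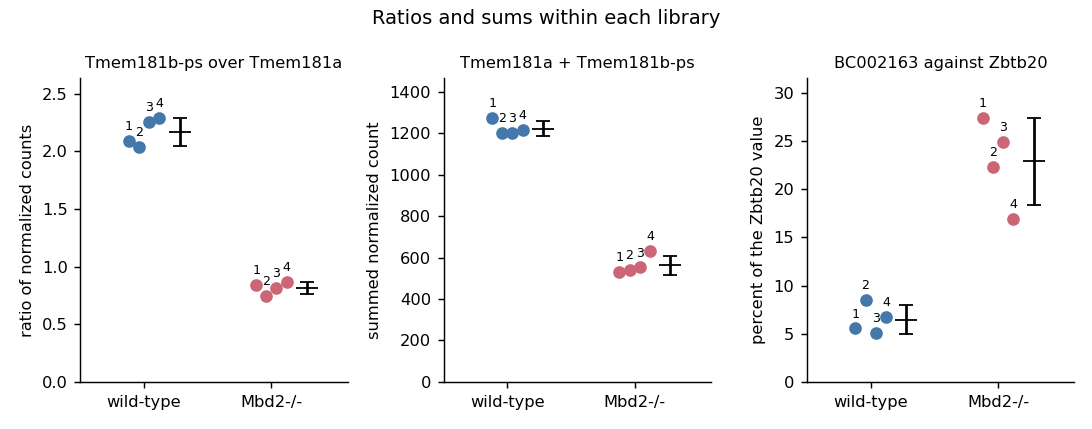
Ratio of Tmem181b-ps to Tmem181a, summed normalized count of the pair, and the BC002163 count over the separate Zbtb20 count, in percent (vertical axes, from 0) in 4 wild-type (blue) and 4 Mbd2-/- (red) libraries, with mean and SD. The ratio is between 2.04 and 2.29 in wild-type and between 0.746 and 0.866 in Mbd2-/- libraries.

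The other genes of complex I, the proton pump to which the Ndufs5 product belongs, gave a backdrop for BC002163. All 36 in the table were tested with limma on log2(value + 1), with Benjamini-Hochberg adjustment over all 14504 tested genes at 0.05. Of all tested genes 22.0% were called, 12.0% higher and 10.0% lower. Of the complex I genes, 30 rose and 6 did not pass. None was called lower (0 at an unadjusted p under 0.05, and 0 by edgeR or DESeq2). Ndufb4, an accessory subunit of the membrane arm, went from 103.9 ± 22.8 to 166.4 ± 42.0 (SD, n = 4 each, log2 difference 0.67 ± 0.17 SE), with overlapping groups. Ndufb7, another of that arm, went from 490.6 ± 45.8 to 738.8 ± 96.7 (0.58 ± 0.09 SE). Ndufa12, another accessory subunit, had the lowest difference at -0.08 and did not pass. The median log2 difference over the 36 genes was 0.36, beside a median close to 0 over all tested genes and a difference of 1.87 for BC002163. Once a trend on transcript length was removed from each library, the number that rose was 17 of 35, the median was 0.20 and 1 gene was lower at an unadjusted p under 0.05. The number that rose was 29 to 34 when any 1 library was left out.

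The distance between the genotypes can be put on a scale by the gap between the nearest libraries of the 2 groups, on log2 values. It was 1.46 for Tmem181b-ps, at rank 5 of the 14504 tested genes, 1.40 for BC002163, at rank 6, and 0.12 for Tmem181a, at rank 1091. The widest range within a genotype was 0.34, 0.45 and 0.23 for these genes, so that the gap was 4.28 times the range for Tmem181b-ps, 3.08 times for BC002163 and 0.52 times for Tmem181a. A gap of at least 1 was found for 11 genes, 9 of them higher in Mbd2-/- libraries. The lower ones were Tmem181b-ps and Crabp2, a retinoic acid binding protein, whose gap was 1.22. Itm2c, a membrane protein gene of the Bri family, had the widest gap at 2.81. Groups without overlap were common in this table, at 23.6% of tested genes, so that Tmem181a is one of many with such a pattern while the other 2 members stand near its far end, which is what they were picked for.

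**Figure D4:**
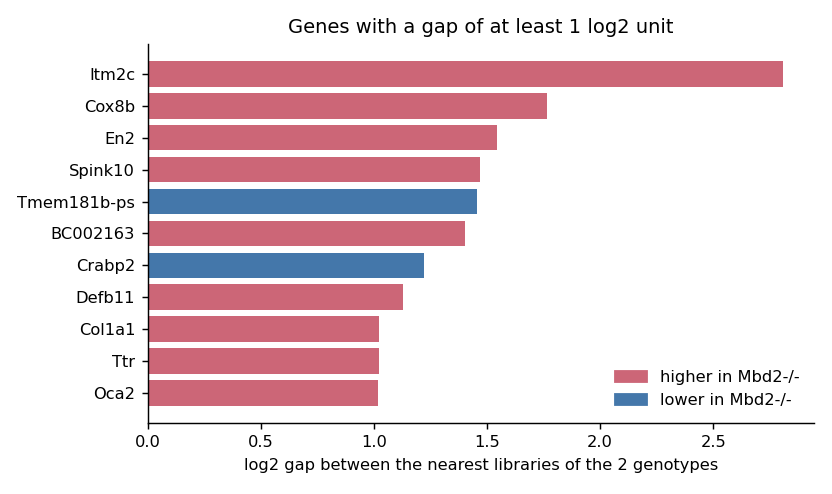
Gap on the log2 scale (horizontal axis, from 0) between the nearest libraries of the genotypes for the 11 genes where it is at least 1; red bars are higher in Mbd2-/- libraries and blue bars lower. Tmem181b-ps (1.46) and BC002163 (1.40) are at ranks 5 and 6, and Itm2c has the widest gap (2.81).

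Some features of the whole set of libraries moved with these values. Mbd2 itself was lower in Mbd2-/- libraries (346 ± 34.4 against 260 ± 54.3, SD, n = 4 each, log2 difference -0.43 ± 0.12 SE, a call lost without wild-type library 3 or Mbd2-/- library 1 or 2). The groups overlapped, with Mbd2-/- library 3 at 339 and wild-type library 1 at 295. The allele leaves the first exon of Mbd2 intact, so that reads on this gene can still be counted. Of 19 choroid plexus markers, all 19 were higher (12.0% of all tested genes were), with summed values of 24538 to 26221 in wild-type and 47524 to 53995 in Mbd2-/- libraries. Of 14 thalamus markers, 11 were lower (10.0% of all tested genes were), with sums of 6277 to 6418 against 4265 to 4813. Of 10 markers that define hippocampal neurons, 3 were higher and 3 lower, which is 60.0% called beside the 22.0% of all tested genes, with sums of 12708 to 13254 and 12572 to 13331, and no marker of any list was at 0 in all libraries. The part of these lists in the values of the members was not tested, and in bulk tissue fewer cells of a type and less RNA per cell cannot be told apart. Mbd2-/- library 4 stood apart from its group: without it 5155 genes were called in place of 3185. Without it the log2 differences were -1.79 for Tmem181b-ps, -0.36 for Tmem181a and 1.96 for BC002163.

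No tested gene beside the pair on chromosome 17 reached the difference of Tmem181b-ps. The 10 nearest tested genes on each side of either member were 21 genes together, from Scaf8 to Sft2d1, and their log2 differences ran from -0.59 to 0.72 with a median of 0.07. Of these, 4 rose (Tiam2, a guanine nucleotide exchange factor, Gtf2h5, a subunit of the general transcription factor TFIIH, Ezr, which links actin to the membrane, and Rnaset2b, a ribonuclease), 2 fell (Arid1b, a chromatin remodelling subunit, and Fndc1), and 15 did not pass. This is 28.6% called, beside the 22.0% of all tested genes. Dynlt1a, a dynein light chain gene that lies between the 2 copies, had means of 18.5 ± 4.84 and 21.5 ± 2.48 (log2 difference 0.23 ± 0.23 SE) and did not pass. Dynlt1b also lies between them, closer to Tmem181b-ps. It was below the minimum for the test, so it is not among the 21 genes, and its values are given further below. Tulp4, the nearest tested gene on the other side of Tmem181a, had means of 4041 ± 85.9 and 4457 ± 260 (0.14 ± 0.05 SE) and did not pass either, though it did with DESeq2, without Mbd2-/- library 1 or 4, and with the trend on transcript length removed, where its log2 difference was 0.29. Ezr, the nearest tested gene after Tmem181b-ps, lies 503 kb from it by the same measure. It rose from 990.4 ± 71.0 to 1197 ± 26.2 (0.28 ± 0.06 SE), the direction opposite to that of Tmem181b-ps. Gtf2h5 rose from 546.8 ± 34.8 to 704.9 ± 30.9 (0.37 ± 0.06 SE). The number called was 2 to 9 when 1 library was left out, with 2 to 4 in every case but that of Mbd2-/- library 4.

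Of 20 tested genes around BC002163 on chromosome 16, which are its host gene Zbtb20, the 9 nearest before it and the 10 nearest after it, 1 rose and 1 fell, which is 10.0% called beside the 22.0% of all tested genes, and the median log2 difference was -0.05. Upk1b, which encodes a membrane protein of urothelium, rose from 12.7 ± 1.97 to 36.7 ± 5.29 (SD, n = 4 each, 1.46 ± 0.21 SE, adjusted p = 0.00025 by limma). Its values were 13.5, 15.0, 10.9 and 11.2 in wild-type libraries and 43.4, 37.5, 35.1 and 30.8 in Mbd2-/- libraries, without overlap and again lowest in Mbd2-/- library 4. Zdhhc23, a palmitoyltransferase gene, fell from 164.2 ± 10.4 to 130.4 ± 15.7 (-0.34 ± 0.10 SE). Gm15713, the nearest tested gene after BC002163, lies 455 kb from it. It was lowly expressed, with means of 16.2 ± 5.10 and 9.58 ± 4.86, and did not pass. Without Mbd2-/- library 4 the number called was 7 of 20, and without wild-type library 1, wild-type library 4 or Mbd2-/- library 2 it was 1.

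**Figure D5:**
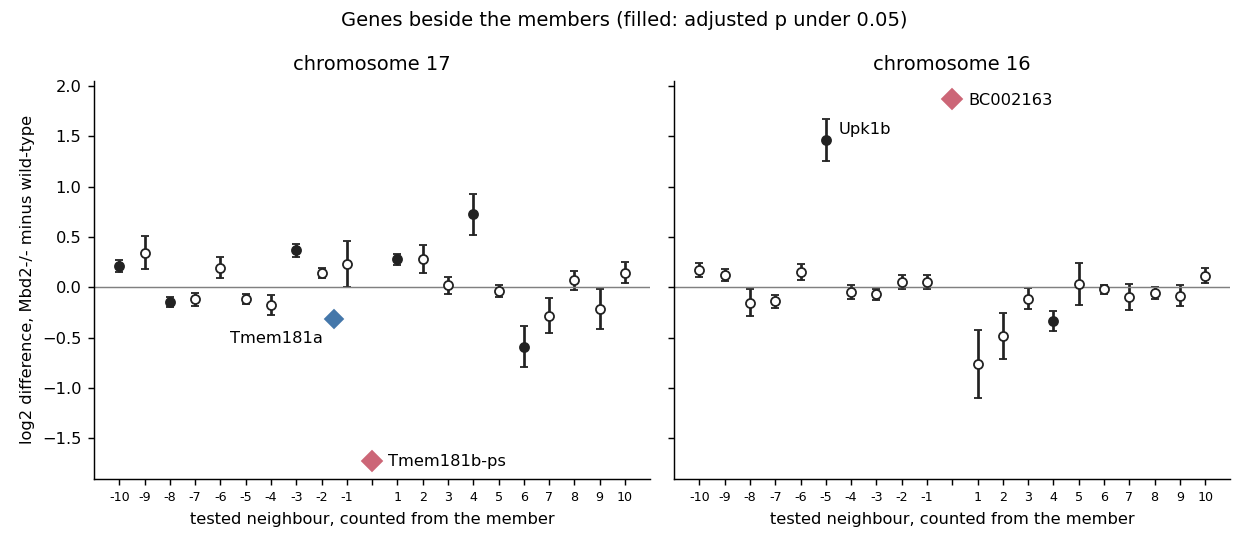
Log2 difference, Mbd2-/- minus wild-type (vertical axis), of the 10 nearest tested genes on each side of Tmem181b-ps (left) and of 20 around BC002163 (right), in chromosome order, with its host gene Zbtb20 drawn at -1; whiskers are the SE from limma, filled points passed the test, and diamonds are the members. Points are evenly spaced, whatever the distance between genes. All neighbours drawn but Upk1b (1.46) lie between -0.76 and 0.72, away from Tmem181b-ps (-1.72) and BC002163 (1.87). Dynlt1b (-1.20), closer to Tmem181b-ps than any gene drawn, was below the minimum for the test and is not shown.

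Few reads were counted on Tmem181c-ps, a partial copy 842 bases long. It had means of 2.03 ± 1.42 and 1.42 ± 0.38, below the minimum for the test. All 743 of its stretches of 100 bases occurred in Tmem181d-ps, which was not analysed here, so that these values do not show its level of expression. Dynlt1b, a dynein light chain gene close to Tmem181b-ps, had normalized counts of 10.5, 11.3, 12.8 and 9.03 in wild-type libraries. In Mbd2-/- libraries they were 3.83, 7.32, 1.59 and 5.77, and these groups did not overlap. Sequence shared by Dynlt1b with the other Dynlt1 genes was not examined, so these counts may hold reads of those genes. Its mean was below the minimum of 10. In a fit with no such minimum its log2 difference was -1.20 ± 0.37 (SE, adjusted p = 0.034 by limma), whereas DESeq2 gave -1.13 with an unadjusted p of 0.030 and no adjusted value. Dynlt1f, Sytl3, Tagap and Cldn20 were below the minimum as well, and Dynlt1c, Dynlt1-ps1 and Nox3 were not analysed here.

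Over the list of 25 relatives and genes of the same chromosomal region, 15 could be tested, and 3 rose (Gtf2h5, Ezr and Tiam2) while 2 fell (Arid1b and Fndc1), 33.3% beside the 22.0% of all tested genes. Rsph3a and Rsph3b, which are copies of a radial spoke gene further along the chromosome, had log2 differences of -0.28 ± 0.17 and 0.28 ± 0.14 (SE), and neither passed. Serac1, Synj2, Snx9, Zdhhc14, Tagap1 and Tfb1m did not pass either. The calls of Fndc1 (34.5 ± 3.47 against 23.0 ± 5.58) and Arid1b (2355 ± 92.6 against 2122 ± 70.4) were lost in 6 and 7 of the 8 fits that left out 1 library, Fndc1 keeping its call without Mbd2-/- libraries 1 or 4 and Arid1b without Mbd2-/- library 4, and both were lost with the replicate number as a block (adjusted p = 0.057 and 0.062 by limma). Both were also lost with no minimum on low values (adjusted p = 0.058 each by limma) and with the trend on transcript length removed, that of Fndc1 with DESeq2 too, and without the trend the log2 difference of Arid1b was -0.02 in place of -0.15. Tiam2 lost its call without wild-type library 1, 3 or 4 or Mbd2-/- library 1 or 2, and the number called over the list was 2 to 7 in these fits.

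Beside Tmem181b-ps the table held 50 symbols ending in -ps, with or without a number, and only 19 passed the minimum. Of these, 4 rose, 1 fell and 14 did not pass. This is 26.3% called, beside 22.0% of all tested genes, and the median log2 difference was 0.09, within a range of -0.75 to 0.72. The number called was 8 of 50 with no minimum and 3 to 7 of 19 without single libraries. With a minimum mean of 50 it was 6 of 9, where 3150 of all 12060 genes tested were called, so the share called among these symbols depended on the minimum. Removing the trend on transcript length could be done for 10 of the 19, among them 2 of the called genes, of which Pisd-ps2 kept its call and Rpl14-ps1 lost it. Nlrp5-ps rose from 116.3 ± 12.1 to 191.4 ± 6.63 (SD, n = 4 each, 0.72 ± 0.10 SE). Rpl14-ps1, a copy of a ribosomal protein gene, rose by 0.39 ± 0.12 with overlapping groups, Ube2d-ps by 0.33 ± 0.10, and Morf4l1-ps1 by 0.29 ± 0.09, also with overlapping groups. Pisd-ps2, at chr17:3076578-3084183 and so just before Scaf8, the first of the neighbours of Tmem181a listed on that chromosome, was the one that fell, from 225.7 ± 6.14 to 134.3 ± 6.91 (-0.75 ± 0.08 SE). It is a copy of the gene for the enzyme that makes phosphatidylethanolamine in mitochondria, and its values were 234, 220, 227 and 221 in wild-type and 135, 124, 137 and 140 in Mbd2-/- libraries.

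Pisd-ps2 was also the tested gene whose pattern was most like that of Tmem181b-ps. Pearson's r of log2 values over the 8 libraries was 0.996. Over deviations from the genotype means, which leave the step between the genotypes out, it was 0.76. Atp2b4, a calcium pump of the plasma membrane, followed with 0.992 and 0.56, and Pi4ka, a lipid kinase, with 0.991 and 0.70. For BC002163 the most similar genes were Baalc, with 0.994 over libraries and 0.93 over deviations, Ppt1, a lysosomal thioesterase, with 0.992 and 0.88, and Vmp1, an autophagy gene, with 0.991 and 0.65. Their log2 differences, 0.33, 0.42 and 0.30, were well below that of BC002163. Between Tmem181b-ps and BC002163 r was -0.99 over libraries and -0.66 over deviations, and the outlying Mbd2-/- library 4 is part of each of these values. All points share the split by genotype and the same 8 libraries, so that these correlations describe likeness of pattern alone.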

How the data were processed

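Hippocampal RNA of 4 wild-type and 4 Mbd2-/- samples was sequenced on an Illumina HiSeq with paired reads of 100 bases after removal of ribosomal RNA. Per the study's methods and the submitters' processing notes, the authors dropped duplicate reads, used STAR to map to the mouse transcriptome (mm9), and took differential expression from DESeq2; versions, strandedness and the treatment of reads with several matches are not given in the sources used here. The deposited table gives each of 19201 genes a normalized count per library, a signal in which the authors divided reads by a DESeq2 size factor. It also holds the authors' own mean, fold change, error, statistic and p-values, which were not used.

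Values were whole multiples of the value of 1 read, and 100.0% of the recovered read numbers lay within 0.01 of a whole number. Depth was 8087750 to 23790825 reads on genes, so that the smaller libraries give the less precise values. Genes whose mean over the libraries reached 10 (14504) were compared on log2(value + 1) with limma 3.58.1 (R 4.3.3; mean-variance trend, robust, no covariates) and Benjamini-Hochberg adjustment at 0.05. A difference on this scale understates the change of low genes. Samples were grouped by their GEO labels. Separate samples are pools of different mice as far as the study's methods say, and p-values measure the spread between these pools. No pair of libraries agreed within sampling noise. Count tests on the recovered reads with edgeR 4.0.16 (quasi-likelihood, TMM) called 3172 genes and DESeq2 1.42.0 called 2905. Further alternatives were other pseudocounts, filters and scalings, the replicate number as a block, removal of a trend on transcript length, and leaving out each library. The fits were tested on simulated data.

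Positions, exons and sequences came from GENCODE vM1 on NCBIM37 (mm9), in which 16812 symbols (87.6%) were found. Exons were aligned globally, and stretches of 100 bases were matched exactly.

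The members and gene lists were chosen with earlier results of these data known. Named genes are the members, the listed relatives, the called and the nearest neighbours of each member, the 3 genes most like Tmem181b-ps and BC002163, the called -ps symbols (up to 4 in each direction), the 2 largest changes of complex I in each direction, and Mbd2. Zbtb20, Itm2c and Crabp2 were named after their values were seen.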

Additional observations from a re-analysis of the deposited data

Results flagged for a closer look

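Among the named genes, 74 sets of 4 libraries were examined for a library far from the other 3, and chance alone sets off this rule in about 1 of 20 sets. It did so in 6. Zbtb20, the gene around BC002163, was lowest in wild-type library 2 (1318, with the next library at 1590), which is also the wild-type library in which BC002163 was highest. Synj2 was lowest in Mbd2-/- library 1 (1045, next 1111). Rpl14-ps1 was highest in wild-type library 2 (474.7, next 350.7) and, among Mbd2-/- libraries, in library 1 (633.4, next 465.4). Ndufb7 was highest in wild-type library 3 (558.8, next 472.7), and Vmp1 was lowest there (988.2, next 1031). None of the members had such a library.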

How the results depend on the processing

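The log2 differences of the members kept their direction under every alternative run. Other pseudocounts, filters, scalings and count tools gave -1.74 to -1.71 for Tmem181b-ps, -0.33 to -0.30 for Tmem181a and 1.83 to 1.87 for BC002163. Removing the trend on transcript length moved BC002163 to 1.56 and Tmem181a to -0.43. Leaving out 1 library at a time gave -1.79 to -1.68, -0.36 to -0.28 and 1.80 to 1.96, and -1.43 to -1.36 for the log2 ratio of Tmem181b-ps to Tmem181a (-1.40 with all libraries). With the trend on length removed, 17 of 35 complex I genes rose in place of 30 of 36. That fit held 10 of the 19 -ps symbols, because the others have no annotated length, and 1 was called in place of 5 of 19. With no filter on low values 8 of 50 were. A minimum mean of 50 gave 6 of 9 -ps symbols and left 1 call beside BC002163, where 3150 of 12060 genes were called. Leaving out 1 library gave 2068 to 5155 calls over the table in place of 3185, 29 to 34 in complex I, 3 to 7 among -ps symbols, 2 to 7 among relatives, 2 to 9 beside the pair on chromosome 17 and 1 to 7 beside BC002163. The replicate numbers do not pair the libraries (correlations of same-numbered deviations -0.10, -0.06, 0.07 and 0.04). With the replicate number as a block, the number of related genes called was 3 in place of 5, and 3192 genes were called over the table. The cause of these shifts was not tested. The planned ratio of BC002163 to Ndufs5 was not run. Reads shared between near-identical copies limit how far the single members can be separated.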
